A study of Mus musculus with 2 samples.

Results

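The 38 genes described here encode the enzymes and transporters that carry glucose through glycolysis, pyruvate and lactate handling, and the pentose phosphate pathway. They were chosen by symbol from a fixed list, isoenzyme by isoenzyme, and every one of the 38 matched a single row of the 43346 Ensembl gene rows in the deposited tables. Total RNA-seq was available from 2 libraries, labelled biological replicates 1 and 2, of primary cells labelled megakaryocyte progenitor cell (CFU-Meg, the colony-forming precursor of platelet-producing megakaryocytes). Both came from male C57BL/6J mice aged 5 to 6 weeks and were made from 1 ng of RNA; the labels name no genotype change and no treatment. By the title of the cited protocol the cells were isolated from bone marrow; the markers they were sorted on are not used here. The biosamples are separate but carry one donor identifier, so n = 2 below need not measure the spread between animals, and the p-values below set differences against counting error only, with no estimate of the spread between animals or libraries. There is 1 group, so the comparisons are between genes within a library and between the libraries.

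Glycolysis splits glucose into pyruvate in the cytosol, spending ATP in its first steps and regaining it in the later ones. Pyruvate is then either reduced to lactate and exported, or passed into mitochondria and oxidized by the pyruvate dehydrogenase complex, which kinases switch off by phosphorylation. The pentose phosphate pathway branches off at glucose 6-phosphate and yields NADPH and the ribose of nucleotides. Many steps have several isoenzymes from separate genes, and in blood the neutrophil lineage is known for NADPH-consuming oxidase activity and the red cell for its own pyruvate kinase form.

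Replicate 1 held 82746658 and replicate 2 held 75652762 expected counts (reads assigned by the quantifier), of which 355371 and 342543 fell on the 38 genes. Markers of megakaryocytes were low in both libraries: 2 of 10 reached 1 TPM (the usual length-corrected transcript level) in both, their summed level was 11.2 TPM in replicate 1 and 6.80 TPM in replicate 2, and Tubb1 was listed at 0 in both. Markers of granulocytes summed to 16167 and 17073 TPM with 10 of 10 at 1 TPM or more. Monocyte markers summed to 2923 and 3333 TPM (6 of 6), most of it Ly6c2 at 2767 and 3120 TPM. Erythroid markers summed to 562 and 327 TPM (8 of 10), most of it Car1 at 512 and 242 TPM. Lymphoid markers summed to 1.64 and 0.93 TPM (0 of 6, with Pax5 and Cd3e at 0). Stroma and endothelium markers summed to 24.3 and 25.1 TPM, nearly all of it Pecam1 at 24.1 and 24.7 TPM, with Cdh5, Col1a1 and Col3a1 at 0. The levels below are therefore those of cells whose leading lineage markers were granulocytic, against the label. In such bulk RNA, more cells of a type and more RNA per cell cannot be told apart.

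The alternative exons of Pkm, the muscle-type pyruvate kinase gene (ENSMUSG00000032294.12, chromosome 9, 59656368 to 59679375, plus strand, GRCm38), are shown first because they separate its M1 and M2 enzymes. The GENCODE transcripts place the M1 exon at chr9:59675029-59675195 and the M2 exon at chr9:59675568-59675734. Both are coding and 167 bases long, both stand at position 9 in their transcript, and a transcript carries one or the other. Capitals mark the 64 positions at which the bases differ when the exons are set side by side without gaps; the other 103 match.
Pkm M1 exon: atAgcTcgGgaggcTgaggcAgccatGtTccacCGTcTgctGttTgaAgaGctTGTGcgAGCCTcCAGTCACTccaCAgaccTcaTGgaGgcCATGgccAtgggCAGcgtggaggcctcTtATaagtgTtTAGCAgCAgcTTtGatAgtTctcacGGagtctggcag
Pkm M2 exon: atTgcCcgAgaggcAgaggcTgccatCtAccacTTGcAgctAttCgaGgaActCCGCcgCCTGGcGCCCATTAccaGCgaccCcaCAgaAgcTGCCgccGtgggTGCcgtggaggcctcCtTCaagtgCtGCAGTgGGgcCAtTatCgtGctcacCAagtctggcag

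Pklr, the liver and red cell pyruvate kinase gene (ENSMUSG00000041237.8, chromosome 3, 89136142 to 89146784, plus strand), has 2 starts, and its reads were assigned mostly to one of them. The RefSeq promoter windows on GRCm38.p6 hold 250 bases before and 50 after each start. The upstream one lies at chr3:89135892-89136191 and the downstream one at chr3:89136373-89136672. Capitals mark AGATAA, bound by erythroid factors, searched on both strands. It occurs 35 bases before the upstream start and at no place in the downstream window, whose RefSeq start (89136623) lies downstream of the start of the main transcript (89136572); 11.2% of all 32851 windows hold it.
Pklr upstream window: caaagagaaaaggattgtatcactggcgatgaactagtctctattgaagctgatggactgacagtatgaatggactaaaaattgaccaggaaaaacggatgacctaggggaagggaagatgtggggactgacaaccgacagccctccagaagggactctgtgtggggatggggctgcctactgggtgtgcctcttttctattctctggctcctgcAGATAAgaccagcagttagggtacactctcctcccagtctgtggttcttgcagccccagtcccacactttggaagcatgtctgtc
Pklr downstream window: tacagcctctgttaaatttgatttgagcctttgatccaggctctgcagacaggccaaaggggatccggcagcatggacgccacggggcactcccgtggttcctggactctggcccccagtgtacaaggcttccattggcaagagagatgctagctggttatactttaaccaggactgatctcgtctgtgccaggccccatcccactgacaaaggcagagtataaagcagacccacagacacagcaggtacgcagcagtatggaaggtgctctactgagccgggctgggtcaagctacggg

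Nearly all of the 38 genes were expressed. In both libraries 36 reached 1 TPM, while 46.2% of 21474 protein-coding genes and 26% of 42462 named genes did so. The exceptions were Aldoc, the brain-type aldolase gene, and Eno2, the neuronal enolase gene. The median of the 38 was 34.4 TPM, set beside 11.6 TPM for the protein-coding genes that reached 1 TPM in both libraries, and 27 of the 38 lay above that value. By mean level, 8 genes stood at 100 TPM or more, 20 between 10 and 100 TPM, 8 between 1 and 10 TPM and 2 below 1 TPM. Together the 38 genes took 0.397% ± 0.008 (SD, n = 2) of all TPM, or 0.869% ± 0.010 of a total without mitochondrial genes, small RNAs, spike-ins, rows with a bare number for a name, and the rRNA-related gene Gm42418.

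**Figure D1:**
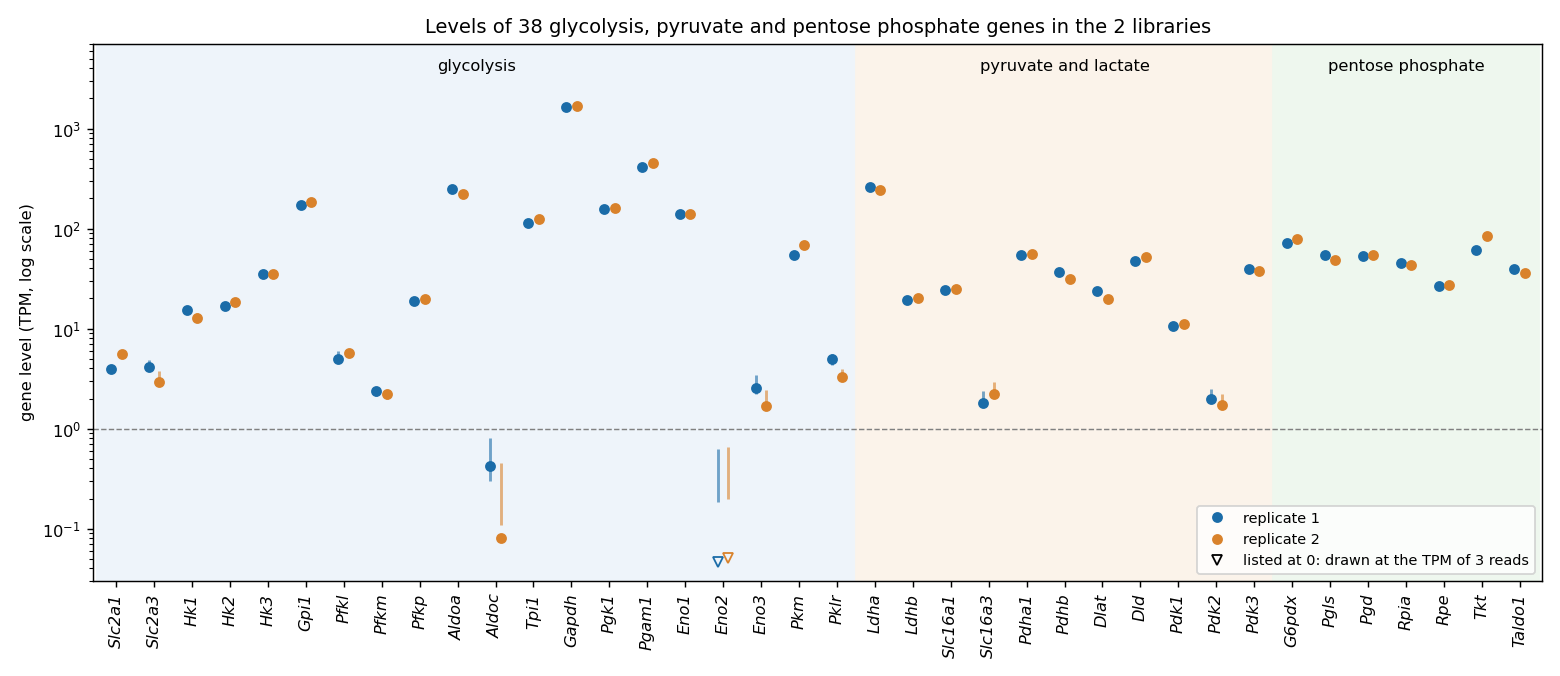
Level of each of the 38 genes in TPM on a log axis, in pathway order; points are the libraries, lines the deposited credibility intervals, and the dashed line 1 TPM. The 8 genes of 100 TPM or more are 7 glycolytic enzymes and Ldha, the glucose transporters and phosphofructokinases lie near or below 20 TPM, and the 7 pentose phosphate genes lie close together.

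Glucose enters through facilitative transporters, and both measured ones were low. Slc2a1, which encodes the widely expressed GLUT1, stood at 3.92 TPM in replicate 1 and 5.57 TPM in replicate 2. Slc2a3, which encodes the high-affinity GLUT3, stood at 4.09 and 2.92 TPM. The order of the transporters thus differed between the libraries, Slc2a3 being the higher in replicate 1 by little and Slc2a1 in replicate 2. On basic protein-coding transcripts alone (those of the GENCODE basic set), Slc2a1 led in both libraries, with 55.1% and 69.7% of the step, so the leader depends on which transcripts are counted. Among the other transporters of the wider pathway list, Slc2a6 stood at 1.2 and 1.12 TPM, Slc2a4, the insulin-responsive transporter of muscle and fat, at 0 and 0.10 TPM, and the liver transporter gene Slc2a2 was listed at 0 in both.

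Hexokinases trap glucose as glucose 6-phosphate, and the myeloid isoenzyme gene led. Hk3 (ENSMUSG00000025877.10, chromosome 13, 55005985 to 55021385, minus strand) stood at 34.9 TPM in replicate 1 and 35.0 TPM in replicate 2, 52.5% ± 0.5 of the summed hexokinase TPM (n = 2). Hk2, the isoenzyme of muscle, fat and growing cells, stood at 16.8 and 18.4 TPM. Hk1, the housekeeping isoenzyme of brain and red cells, stood at 15.3 and 12.8 TPM. Hk2 was above Hk1 in both libraries. That order rests on a short non-coding model. The processed transcript ENSMUST00000168725.1 (594 bases) took 67.2% and 62.2% of Hk2 TPM from 320 and 302 reads, against 1826 and 2023 reads for the 5513-base coding transcript. Counting protein-coding transcripts of the GENCODE basic set alone, Hk3 had 60.6% ± 4.0 of the hexokinase TPM, Hk1 25.5% ± 4.3 and Hk2 13.9% ± 0.3, so Hk3 kept the lead and Hk1 stood above Hk2 in both libraries. Hkdc1, a further hexokinase gene, was listed at 0 in both libraries.

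Glucose 6-phosphate is isomerized by Gpi1, the only member of its step, at 172 and 184 TPM in replicates 1 and 2. The next, committed step is carried by phosphofructokinase, a tetramer of liver (Pfkl), muscle (Pfkm) and platelet-type (Pfkp) subunits. Its summed level, 26.8 ± 1.1 TPM, was the lowest of the glycolytic enzyme steps in both libraries. Pfkp stood at 18.7 and 19.7 TPM, Pfkl at 5.00 and 5.70 TPM and Pfkm at 2.36 and 2.22 TPM, an order that was the same in both. At the gene level Pfkp thus held 71.5% ± 0.3 of the step (n = 2).

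The lead of Pfkp shrank when its transcripts were taken apart. The coding transcript Pfkp-207 (4145 bases) stood at 5.76 and 6.00 TPM, 30.8% and 30.5% of the gene. The retained-intron model Pfkp-202 (2680 bases) stood at 8.70 and 6.51 TPM. On basic protein-coding transcripts alone Pfkp had 43.8% ± 1.0 of the step and Pfkl 39.1% ± 2.7, with Pfkp the higher in both libraries (44.5% against 37.2% in replicate 1, 43.1% against 41.0% in replicate 2). Exons of Pfkp overlap 748 bases of Pitrm1 on the opposite strand, a gene at 31.9 and 30.7 TPM, and no source used here says whether counting used strand, so reads of these genes may have been mixed.

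Of the enzymes that set the level of fructose 2,6-bisphosphate, the strongest activator of phosphofructokinase, Pfkfb3 was the highest at 19.8 and 20.5 TPM. Pfkfb1, Pfkfb2 and Pfkfb4 lay at 3.77 ± 1.00, 2.49 ± 1.44 and 1.17 ± 0.18 TPM (n = 2). Tigar, which lowers this activator, stood at 3.45 and 4.06 TPM. The gluconeogenic gene Fbp1, whose enzyme reverses the step, stood at 4.29 and 5.71 TPM and Fbp2 was listed at 0.

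Below the committed step, the aldolase, enolase and pyruvate kinase families each had a single leading gene. Aldoa, the ubiquitous aldolase gene, stood at 247 TPM in replicate 1 and 223 TPM in replicate 2. Aldoc stood at 0.42 and 0.08 TPM from expected counts of 25 and 12, so Aldoa held 99.9% ± 0.1 of the step. Aldoa reads were divided between starts. The transcript that starts farther upstream, Aldoa-203, took 59.1% and 71.4% of the gene, at 146 and 159 TPM, and Aldoa-201 took 38.5% and 26.6%, at 95 and 59.2 TPM. The deposited credibility intervals of Aldoa-201 were 84.9 to 103 TPM (replicate 1) and 50.1 to 65.3 TPM (replicate 2) and did not overlap, so its level differed between the libraries by more than the authors' estimate of assignment error.

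Triose phosphate isomerase, Tpi1, which interconverts the products of aldolase, stood at 115 and 123 TPM. Gapdh (ENSMUSG00000057666.14, chromosome 6, 125161715 to 125166467, minus strand), whose enzyme makes the NADH of glycolysis, was the highest of the 38 at 1638 TPM in replicate 1 and 1693 TPM in replicate 2. It took 41.9% ± 0.1 of the TPM of the whole set and ranked 34 among protein-coding genes. Of the Gapdh TPM, the 565-base retained-intron model Gapdh-206 took 23.3% and 24.6%, leaving 1255 ± 13 TPM on basic protein-coding transcripts. Gapdh also has 72 other gene rows of at least 95% identity over 200 bases or more, which held reads equal to 8.25% and 8.36% of its own, so a part of its reads could have been assigned elsewhere. Gm12671, identical to Gapdh over 1002 bases, stood at 33.0 TPM in replicate 1 and 5.50 TPM in replicate 2, whereas Gm10359, likewise identical over 1002 bases, stood at 39.3 and 63.4 TPM.

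Phosphoglycerate kinase, Pgk1, the first ATP-yielding step, stood at 155 and 162 TPM, and phosphoglycerate mutase, Pgam1, at 413 and 453 TPM, the second highest level of the 38. Both have processed copies with stretches of full identity (1255 bases in Pgk1-rs7 and 765 in Pgam1-ps2) that took reads. Pgk1-rs7 stood at 18.6 and 25.0 TPM, and Pgam1-ps2 at 61.7 and 35.1 TPM. Reads inside those stretches fit parent and copy alike, so the levels of both are uncertain to that extent. The testis gene Pgk2 was listed at 0 and the muscle gene Pgam2 lay at 0.18 and 0.15 TPM. Bpgm, which diverts the intermediate to 2,3-bisphosphoglycerate in red cells, stood at 1.91 and 1.75 TPM.

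Enolase came almost wholly from Eno1, the ubiquitous form, at 139 TPM in replicate 1 and 140 TPM in replicate 2, which was 98.5% ± 0.4 of the step (n = 2). Eno3, the muscle form, stood at 2.54 and 1.68 TPM. No read was assigned to Eno2 (expected count 0 in each library). Counting error alone would allow 0.0469 TPM in replicate 1 and 0.0504 TPM in replicate 2, although its deposited credibility intervals reach 0.62 and 0.66 TPM. Eno1b, on chromosome 18 and 99.5% identical to Eno1 over 1736 bases, took 5.2 and 5.63 TPM that may belong to Eno1.

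Pyruvate kinase makes the pyruvate and the last ATP of glycolysis, and most of its TPM lay on Pkm with the M2 exon. Pkm stood at 54.4 TPM in replicate 1 and 68.5 TPM in replicate 2, and it held 93.5% ± 2.7 of the step. Its M2 transcript, ENSMUST00000034834.11, carries the second exon printed above and stood at 50 TPM in replicate 1 (deposited credibility interval 47.5 to 50.6) and 62.8 TPM in replicate 2 (59.6 to 63.6). The M1 transcript, ENSMUST00000163694.2, stood at 4.36 TPM (3.27 to 5.53) and 5.75 TPM (4.26 to 7.30). M2 was therefore 91.8% ± 0.3 of Pkm TPM, 11.2 ± 0.4 times the M1 level (n = 2), and the intervals of the forms lay far apart in both libraries. In the annotation used by the authors both transcripts are 2432 bases long, so the ratio does not depend on a length correction. M2 is known as the form of embryonic, proliferating and many blood cells, whose activity is under allosteric control, and M1 as the constitutively active form of muscle and brain.

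**Figure D2:**
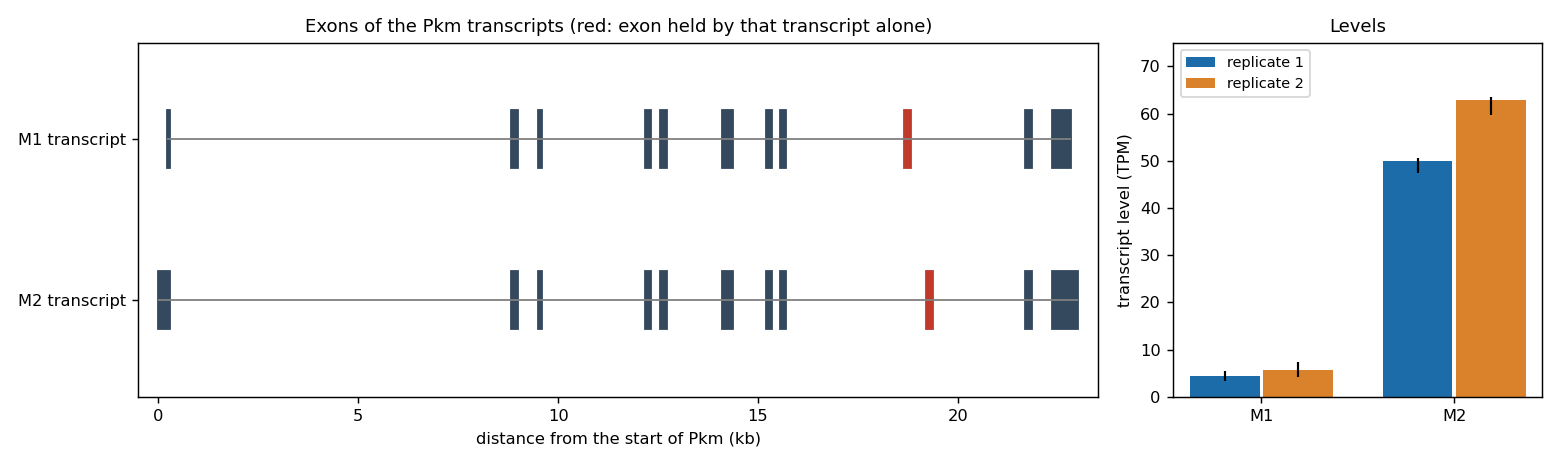
Exons of the Pkm M1 and M2 transcripts by distance from the gene start in kb, with the exon held by that transcript alone in red (left), and transcript levels in TPM per library with the deposited credibility intervals as lines (right). The M2 bars stand at 50 and 62.8 TPM and the M1 bars at 4.36 and 5.75 TPM.

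Pklr stood at 4.96 and 3.26 TPM in replicates 1 and 2. The red cell form of this enzyme is known to start at the upstream promoter and the liver form at the downstream one. The transcript with the downstream first exon, Pklr-202, took 84.3% and 94.3% of the gene, at 4.18 TPM (deposited credibility interval 3.42 to 4.31) and 3.07 TPM (2.52 to 3.37). The full-length transcript from the upstream start, Pklr-201, stood at 0 and 0.19 TPM from 0 and 28.4 reads, with upper bounds of 0.63 and 0.60 TPM. A short upstream model, Pklr-205, took 10.0 and 0 reads. Reads that fit both starts are divided by the quantifier, and the credibility intervals carry that uncertainty. Exons of Pklr also overlap 711 bases of Hcn3 on the opposite strand, a gene at 0.23 and 0.20 TPM.

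Lactate dehydrogenase reduces pyruvate and restores NAD+, and the muscle-type subunit gene dominated. Ldha stood at 259 TPM in replicate 1 and 244 TPM in replicate 2 and held 92.8% ± 0.5 of the step. Ldhb, the heart-type subunit gene, stood at 19.1 and 20.1 TPM, of which only 54.2% ± 7.4 lay on its basic protein-coding transcript. On basic protein-coding transcripts alone the Ldha share was 95.9% ± 0.8. Ldha was above Aldoa in both libraries, but their ranges over the libraries overlapped. The testis gene Ldhc lay at 0.18 and 0.11 TPM.

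Lactate leaves the cell through monocarboxylate transporters. Slc16a1, which encodes MCT1, stood at 24.5 and 25.1 TPM and held 92.5% ± 1.0 of its pair. Slc16a3, which encodes MCT4, the exporter of highly glycolytic cells, stood at 1.79 and 2.23 TPM. Slc16a7, which encodes MCT2, stood at 4.90 and 4.91 TPM, above Slc16a3 in both libraries. Bsg, the chaperone that carries MCT1 and MCT4 to the membrane, stood at 194 and 183 TPM. The mitochondrial pyruvate carrier genes Mpc1 and Mpc2 stood at 97.9 and 112 TPM and at 51.4 and 49.7 TPM.

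The pyruvate dehydrogenase complex makes acetyl-CoA in the mitochondrion, and its 4 member genes summed to 161 ± 2.9 TPM. Pdha1, the E1 alpha subunit that the kinases phosphorylate, stood at 54.6 and 55.6 TPM. Pdhb, the E1 beta subunit, stood at 36.5 and 31.2 TPM. Dld, the E3 subunit shared with other dehydrogenase complexes, stood at 47.9 and 52.4 TPM. Dlat, the E2 core, was the lowest of the 4 at 23.9 and 19.7 TPM, of which 78.5% and 78.3% was coding, and Pdhx, which anchors E3 to the core, stood at 8.60 and 7.44 TPM. Exons of Pdha1 overlap 603 bases of Map3k15 on the opposite strand, a gene at 1.36 and 1.21 TPM.

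Of the kinases that inhibit the complex, Pdk3 led at 39.1 TPM in replicate 1 and 37.5 TPM in replicate 2, 75.1% ± 0.6 of the summed kinase TPM. Pdk1, a known target of hypoxia signalling, stood at 10.7 and 11.0 TPM, and Pdk2 at 1.96 and 1.73 TPM. Pdk4, the kinase known for its induction by fasting and fatty acids, was listed at 0 in both libraries. By reads, without correction for length, the Pdk3 share was 53.5% ± 1.2; the main Pdk1 transcript has 5185 bases and that of Pdk3 2115. The phosphatase genes that reactivate the complex, Pdp1 and Pdp2, stood at 3.65 and 3.32 TPM and at 3.49 and 3.01 TPM, with their regulator Pdpr at 4.21 and 4.54 TPM. All 3 lay under Pdk1 and Pdk3 and above Pdk2 in both libraries.

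**Figure D3:**
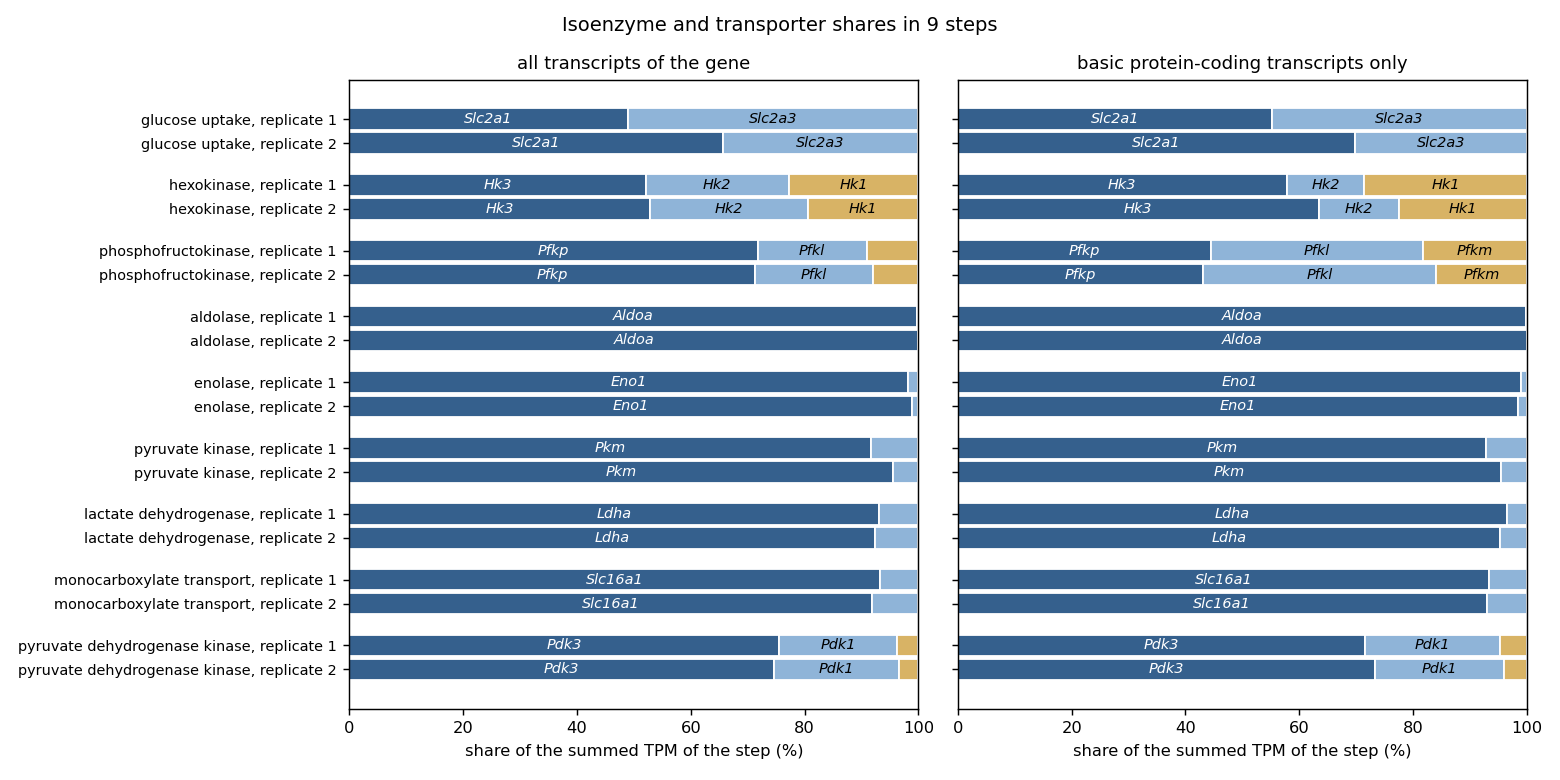
Share of each gene in the summed TPM of its step, for 9 steps with several member genes and for each library; on the left all transcripts of a gene are counted and on the right basic protein-coding transcripts alone. Aldoa, Eno1, Pkm, Ldha and Slc16a1 hold over 90% in both panels, while the Pfkp share falls from 71.5% to 43.8% and Hk2 falls below Hk1.

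Gene by gene as listed, the pentose phosphate genes were the most even of the pathway. All 7 lay between 27.1 and 74.6 TPM on average, with a median of 51.6 TPM. The 20 glycolysis genes ran from 0 to 1665 TPM with a median of 18.4 TPM. The 11 pyruvate and lactate genes ran from 1.85 to 252 TPM with a median of 24.8 TPM. The glycolysis list counts transporters and minor isoenzymes, which the pentose phosphate list lacks, so these medians do not rank the pathways. Summed by step, glucose uptake stood at 8.25, phosphofructokinase at 26.8, pyruvate kinase at 65.6 and hexokinase at 66.6 TPM on average. The other glycolytic steps stood at 119 TPM or more. In the oxidative branch, G6pdx, the rate-limiting glucose 6-phosphate dehydrogenase, stood at 71.5 TPM in replicate 1 and 77.8 TPM in replicate 2. Pgls, the lactonase, stood at 55.0 and 48.2 TPM. Pgd, which makes the second NADPH and ribulose 5-phosphate, stood at 52.6 and 54.8 TPM. The summed oxidative branch was 180 ± 1.2 TPM and the summed non-oxidative branch 182 ± 12.2 TPM (n = 2), a difference within the spread of the libraries.

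In the non-oxidative branch, which joins ribose 5-phosphate to glycolytic intermediates, Tkt, the transketolase, stood at 61.6 and 83.7 TPM. The isomerase and epimerase genes Rpia and Rpe stood at 45.4 and 43.7 TPM and at 26.7 and 27.5 TPM. Taldo1, the transaldolase, stood at 39.7 and 35.9 TPM. Exons of Rpe overlap 558 bases of Kansl1l on the opposite strand, a gene at 19.6 and 16.0 TPM, and exons of Pgls overlap 776 bases of Fam129c on the same strand, at 4.21 and 2.70 TPM. H6pd, the dehydrogenase of the endoplasmic reticulum, stood at 6.43 and 6.05 TPM. The transketolase-like genes Tktl1 and Tktl2 and the retrogene G6pd2 stayed under 0.10 TPM in both.

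Across the 49 other genes of the wider pathway list, 24 reached 1 TPM in both libraries and 11 were listed at 0 in both. Those at 10 TPM or more in both were Bsg, Mpc1, Mpc2, Pfkfb3, G6pc3 and 4 transcription factor genes. G6pc3, the ubiquitous glucose 6-phosphatase whose loss in humans causes neutropenia, stood at 59.5 and 44.1 TPM, while G6pc, the liver form, was listed at 0. Myc, which activates many glycolytic genes, stood at 155 and 135 TPM, Mlx and Mlxip, partners in glucose-sensing complexes, at 30.1 and 32.9 TPM and at 13.3 and 13.5 TPM, and Hif1a, the oxygen-regulated factor, at 26.7 and 25.9 TPM. Pck2, the mitochondrial carboxykinase, stood at 7.71 and 7.13 TPM, Pck1 was listed at 0, and Pcx, pyruvate carboxylase, lay at 0.47 and 0.25 TPM.

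RefSeq promoter windows were found for 37 of the 38 genes, 52 windows in all, since several genes have more than 1 start; Slc2a3 had none. The core hypoxia response motif ACGTG, on either strand, occurred in at least 1 window of 18 of 37 genes (48.6%), where 23.2% of 17492 protein-coding genes have it. The other core, GCGTG, occurred in 23 of 37 (62.2%), beside 41.4% of protein-coding genes. By single windows the shares were 38.5% beside 20.9% for ACGTG and 53.9% beside 38.5% for GCGTG. The E-box CACGTG, which contains ACGTG, occurred in 4 of 37 genes (10.8%), beside 8.91%; by single windows its order turned, with 7.69% beside 7.84%. These are matches of letters in sequence, with no measurement of binding. The protein-coding genes set beside them were not matched for level or base composition.

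The libraries gave closely similar values for these genes. For each gene, an exact binomial test (two-sided) set its reads in replicate 2 against the share that edgeR's TMM-scaled library sizes give. Benjamini-Hochberg adjustment ran over all 14198 genes that passed the filter on low counts. The test compares 2 libraries, not conditions. Of the 38 genes, 37 passed the filter, and Eno2 did not. With a 2-fold change required beside an adjusted p under 0.05, 0 of 37 differed. Of all genes tested 7.61% did (2.63% higher and 4.98% lower in replicate 2), and of the 5740 genes of 10 TPM or more 0.61%. At any ratio, 29 of 37 had an adjusted p under 0.05 (30 of 37 unadjusted), beside 59.1% of all genes and 65.7% of genes of 10 TPM or more. Out of the 37 tested, 19 passed at any ratio and were higher in replicate 2, beside 29.4% of all genes tested. Another 10 of the 37 passed and were lower, beside 29.7% of all genes tested. Such abundant genes pass on small ratios. The test takes reads as independent, and PCR copies, which would break this, were not measured here. With counts divided by 4, the 29 of 37 fell to 15 of 36. For the 28 genes of 10 TPM or more the median absolute log2 ratio was 0.12, and it was 0.12 for all 5740 genes of that level. The biological coefficient of variation over all genes, estimated with edgeR, was 0.208.

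The differences past the test were moderate, and the widest that did not pass was that of a scarce gene. Tkt had a log2 count ratio of replicate 2 over replicate 1 of 0.49 (95% exact interval 0.46 to 0.53), from 11733 and 14895 reads, with an adjusted p of 1.22e-167 by the exact binomial test. Pkm had 0.38 (0.33 to 0.42), from 7747 and 9072 reads. These were the only ones of the 28 genes of 10 TPM or more whose ratio lay outside the central 90% of genes of that level, a bound of 0.34. Since that bound holds 90% of those genes by definition, 2 of 28 outside it is no excess over them. Aldoc had -0.81 (-2.04 to 0.14) from 25 and 12 reads, with an adjusted p of 0.11 by the exact binomial test, so no difference was detectable at that depth.

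Among the genes under 10 TPM, Slc2a1 had a log2 count ratio of 0.51 (0.36 to 0.67) and Slc2a3 one of -0.40 (-0.56 to -0.25), so the transporter genes moved in opposite directions. Slc16a3 had 0.39 (0.15 to 0.64). Pklr had -0.34 (-0.51 to -0.18), and the erythroid markers Klf1, at 9.28 and 5.10 TPM, and Car1, at 512 and 242 TPM, were lower in replicate 2 as well, while the 4 globin genes of the marker list were higher there. Granulocyte markers Mpo, at 6306 and 5478 TPM, and Elane, at 3661 and 2759 TPM, were lower in replicate 2. All other granulocyte markers listed were higher there, among them S100a8 at 1313 and 2377 TPM and S100a9 at 1138 and 2030 TPM. All 6 monocyte markers were higher in replicate 2, among them Irf8 at 33.5 and 49.3 TPM, Ccr2 at 31.1 and 42.3 TPM and Ms4a6c at 72.5 and 96.8 TPM. The part of these lineages in the differences of Pklr, Pkm and Tkt was not tested. Hk3, the myeloid hexokinase, had 0.17 (0.11 to 0.22), with nearly equal TPM.

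**Figure D4:**
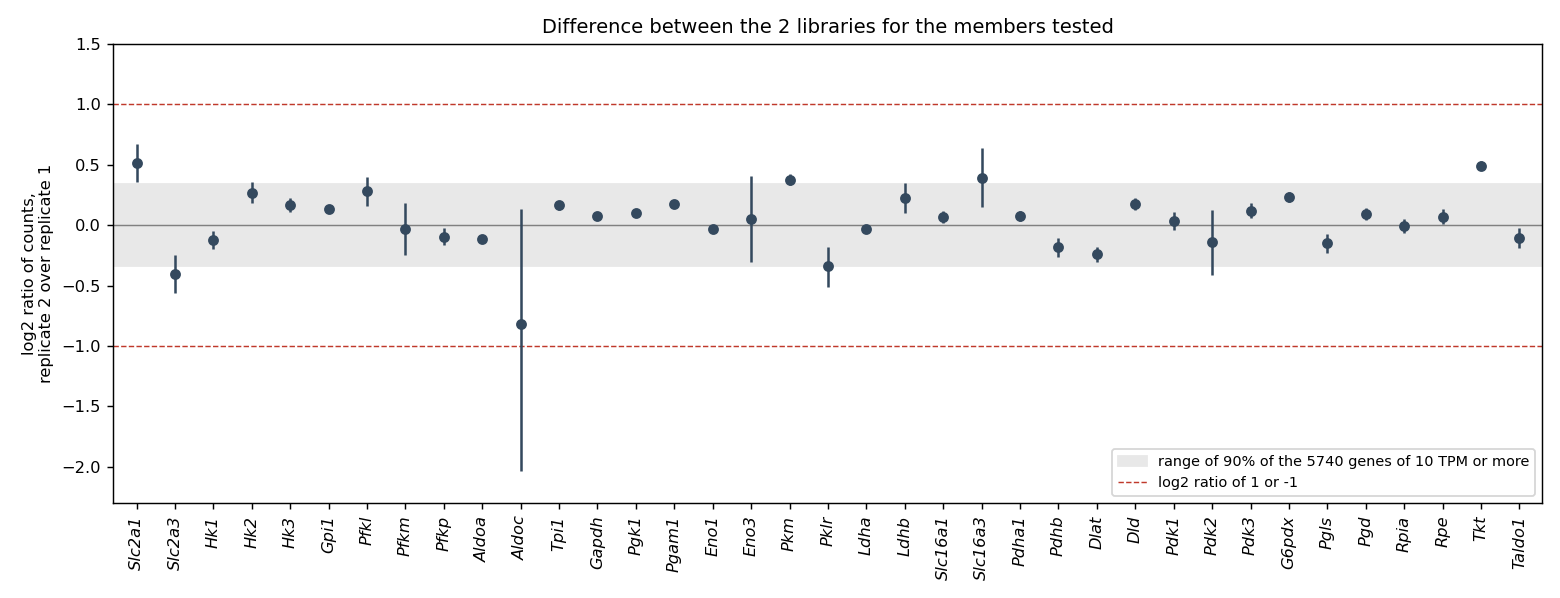
Log2 ratio of counts, replicate 2 over replicate 1, for the 37 genes that passed the filter, with 95% exact binomial intervals; the grey band holds 90% of the 5740 genes of 10 TPM or more and dashed lines mark a log2 ratio of 1 and -1. No point reaches the dashed lines, though the interval of Aldoc crosses one, and Tkt at 0.49 and Pkm at 0.38 are the genes of 10 TPM or more outside the band.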

How the data were processed

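Total RNA-seq covered 2 libraries of 1 group. Per the deposited file lists, reads were aligned to mm10 and quantified against GENCODE M4, each library on its own; the column names are those RSEM writes, and no source used here gives the aligner, the quantifier version or the use of strand. Expected counts are, per the file headers, estimated reads, not normalized. The authors' TPM values are per length and scaled to a fixed total, so abundant rRNA and mitochondrial RNA lower them all. The deposited FPKM values were not used. The deposited score columns are bounds of a credibility interval around the posterior mean, so TPM can lie outside them; no source used here gives their level. The deposited percent values give each transcript's part of its gene's TPM.

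Symbols, biotypes and positions came from GENCODE M21 on GRCm38 (42462 of 43346 Ensembl rows matched); M21 and M4 transcript ends can differ. The genes, lists and tests were chosen with earlier results of these data known. A share is a gene's TPM over the summed TPM of its step. Similar genes were found with BLAST 2.17.0. Expected counts were rounded to whole numbers for edgeR 4.0.16 in R 4.3.3 (TMM, filterByExpr, prior count of 2) and for DESeq2 1.42.0 size factors. In a test on simulated reads over 14989 genes, the 2-fold rule called 97 of 100 genes changed 3-fold and 0 of 100 changed 1.2-fold, with 1 false call. A 1.2-fold change lies under the 2-fold rule, so the 0 of 100 follows mostly from the rule itself. The simulated reads carried counting error only, with no spread between libraries. The false call therefore does not measure the error rate in these data, whose biological coefficient of variation was 0.208. The limit that a count of 0 allows is 3 reads; it and the intervals cover counting error only. The genes named are all 38 members; of the 49 other pathway genes, those at 10 TPM or more in both libraries and those that share a step, and further regulators were added after their values were seen. Alternatives for the counts were DESeq2 scaling, no filter, counts divided by 4, a 1.5-fold threshold and a prior count of 0.5. Alternatives for levels and shares were posterior mean TPM, shares of counts, basic protein-coding transcripts alone and each library alone.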

Additional observations from a re-analysis of the deposited data

How the results depend on the processing

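With 2 libraries of 1 group, no condition could be tested. Depth limits the scarce genes and, for small ratios, abundant ones too. The first gene of a step was the same in both libraries under all 4 ways of counting for 8 of 9 steps. The exception was glucose uptake, where Slc2a1 led in both libraries on basic protein-coding transcripts alone. Leaving out a library gave 48.9% to 65.6% for Slc2a1, 52.1% to 52.8% for Hk3, 71.3% to 71.8% for Pfkp, 99.83% to 99.96% for Aldoa, 98.2% to 98.8% for Eno1, 91.6% to 95.5% for Pkm, 92.4% to 93.1% for Ldha, 91.8% to 93.2% for Slc16a1, 74.7% to 75.6% for Pdk3, 91.6% to 92.0% for the M2 share of Pkm and 0.391% to 0.403% for the members' share of TPM. By shares of expected counts, which carry no length correction, Hk3 had 49.7%, Pfkp 67.9%, Eno1 99.0%, Ldha 95.4%, Slc16a1 95.7% and Pdk3 53.5% of its step. By posterior mean TPM, Eno1 had 98.0% and Pdk3 74.3%. On basic protein-coding transcripts, an alternative added after the data were seen, Hk3 had 60.6%, Pfkp 43.8%, Ldha 95.9% and Pdk3 72.4%. With the other RNA classes left out, the members' share of TPM was 0.869%. Counts divided by 4 left 15 members under an adjusted p of 0.05 by the exact binomial test, from 29, because fewer reads were tested. With that setting 14 ratios lost the call, that of Ldha among them (adjusted p 0.0303 to 0.346). Without the filter on low counts, Ldha lost the call as well (adjusted p 0.0811 by the same test). Rpe gained it there (0.0539 to 0.0388), so the count of 29 hides a change of members. The 2-fold rule called 0 members under each of the 4 other settings, and the 1.5-fold threshold 0 as well. No member's ratio changed direction in 147 repeats. These reuse the same reads and move the ratios little, so they show the effect of the settings and not of new libraries. A minimum of 5 TPM kept 29 of 38 genes. No paired analysis was possible because there is only 1 group.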
